A study of Mus musculus with 4 samples.

Results

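Each islet library of the study carries a number in its name, and the comparison described here sets the 2 libraries of number 2 (wild type 2 and transgenic 2) against the 2 libraries of number 1 (wild type 1 and transgenic 1), with genotype as a second term. Its members are the 6506 protein-coding genes, of 54532 genes in the deposited table, that reached 5 FPKM (fragments per kilobase of gene and per unit of sequencing depth, a level per gene length) in at least 2 of the 4 libraries. The contrast was chosen from measured values, because libraries of 1 number had been seen to lie together, so every difference between the numbers is given as a description and no test is drawn from it. The sources used here do not say what a number stands for, so a day, a mouse, an islet preparation and a sequencing run cannot be told apart.

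The islets came from male C57BL/6 mice of 10 to 12 weeks. The wild-type group has 2 libraries, and the other group has 2 libraries from mice that overexpress miR-29a/b-1 in pancreatic beta cells only, by a transgene whose promoter is not given. Islets were frozen on dry ice after isolation, and whether islets of several mice were pooled is not given. Since the labels do not say that libraries came from separate animals, a spread between them may be technical.

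The 4 libraries held 23730364, 27080907, 23654135 and 21670854 reads in genes (wild type 1, wild type 2, transgenic 1 and transgenic 2). All 4 carried the defining markers of islet endocrine cells, among them Ins1, Ins2, Iapp, Gcg, Sst and Ppy, which encode the islet hormones. The short miRNA loci of the transgene do not check the genotype: Mir29b-1 was listed at 0 in all 4 libraries and Mir29a at 1.32 FPKM in wild type 2 and at 0 in the others. Markers of acinar cells, which make digestive enzymes and surround the islets, were present in every library and summed to 6979 and 9297 FPKM in number 1 and to 1521 and 2495 FPKM in number 2. In bulk RNA fewer cells of a type and less of their RNA per cell cannot be told apart.

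Islet cells carry a large secretory load, and the endoplasmic reticulum chaperones that fold proinsulin are kept in step with it by the unfolded protein response. Heat shock factor HSF1 raises cytosolic chaperones when proteins misfold, and the circadian clock, a feedback loop of CLOCK and BMAL1 with their own repressors, runs in islets as in most tissues. Immediate early genes such as Fos and Jun respond within minutes to hours of a stimulus.

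Within each genotype the difference between numbers was taken on the log2(FPKM + 1) scale, which understates the change of low genes. Every fold given below, and the 1.5-fold limit, is a ratio of FPKM + 1. It falls short of the ratio of the FPKM printed, most of all for low genes. Where values are written as a pair against a pair, the first pair is wild type 1 and transgenic 1 and the second is wild type 2 and transgenic 2, and within every pair wild type comes first. The sign was the same in both genotypes for 5305 members (81.5%), while the median difference over all members was 0.02 in wild type and 0.01 in transgenic islets. Both number 2 libraries lay above both number 1 libraries for 2348 members (36.1%) and below them for 2162 (33.2%). By genotype, both transgenic libraries lay above both wild-type libraries for 879 members and below for 499. The first principal component over the members held 86.3% of the variance and set number 1 apart from number 2 in both genotypes, and the second held 9.71%.

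A member was counted as higher or lower when it was at least 1.5-fold apart in the same direction in both genotypes. Of the 6506 members, 190 (2.92%) were higher in number 2 and 322 (4.95%) were lower. At 2-fold the counts were 24 and 132, and at 4-fold they were 1 and 33. The larger differences were thus mostly on the lower side, and 55 of the 322 lower members belonged to the lists of acinar genes (26 of 28) and immediate early genes (29 of 31), which leaves 267 outside these lists. Between genotypes, 6 members were at least 1.5-fold higher in transgenic islets within both numbers and 0 were lower, without any test.

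**Figure D1:**
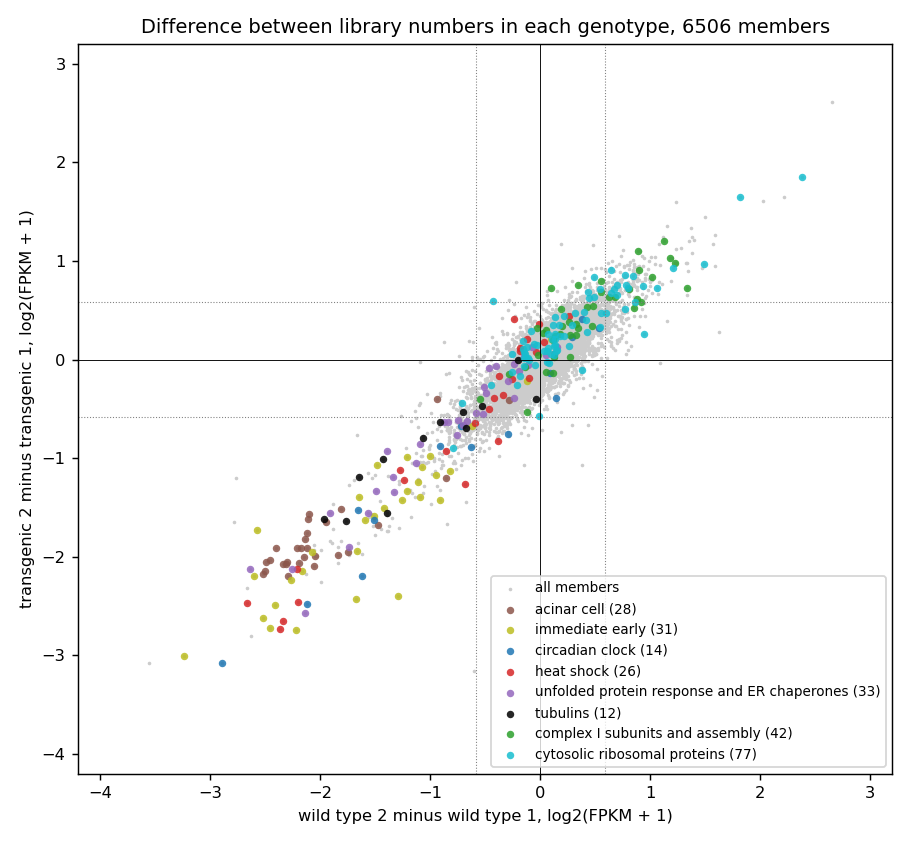
Each point is 1 of the 6506 members, placed by its difference between number 2 and number 1 in wild type (horizontal) and in transgenic islets (vertical), both on the log2(FPKM + 1) scale, with dotted lines at 1.5-fold and the number of members of each coloured list in brackets. Acinar, immediate early, clock, heat shock, endoplasmic reticulum and tubulin genes extend to the lower left, and ribosomal and complex I genes to the upper right.

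limma, fitted on all 12716 genes of at least 1 FPKM in 2 libraries with genotype and number as terms, called 13.4% of genes higher and 14.1% lower in number 2 at an adjusted p of 0.05, and among the members 1013 higher and 1074 lower. These counts describe the contrast and support nothing, because the contrast was chosen from the same values. A fit with voom on the recovered reads gave 768 higher and 2003 lower members, with a median over the members of -0.11, and the cause of this difference was not tested. Voom takes its scale from the reads in genes. The FPKM steps imply other depths, 2.39e+07, 2.59e+07, 2.58e+07 and 2.10e+07 reads (wild type 1, wild type 2, transgenic 1 and transgenic 2). With voom the median difference was -0.06 in wild type and -0.16 in transgenic islets. Rescaling the FPKM moved the split less, to 969 and 1109 with median centring and 1044 and 965 with scaling without insulin, amylin and mitochondrial genes. The count changed with each library left out, to 432 and 607 without wild type 1, 287 and 366 without wild type 2, 225 and 239 without transgenic 1, and 373 and 561 without transgenic 2. An exact permutation of 2 against 2 libraries cannot go below 0.333 for any single gene, 2-sided.

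How a member passed the filter bears on its difference. The filter was met in all 4 libraries by 5594 members, of which 143 were higher and 230 lower, and in both number 1 libraries only by 241, of which 72 were lower. A further 219 met it in both number 2 libraries only, 40 of them higher, and 372 met it in 3 libraries, with 7 higher and 20 lower. A further 23 passed in both wild-type libraries only, 31 in both transgenic libraries only and 26 in 1 library of each number and genotype, and 0 of these were higher or lower. Just inside the filter lay Bnip2 and Ctnnbip1, whose second highest values were 5.0003 and 5.0008 FPKM. Just outside lay Tenm3 at 4.998 FPKM and the clock output gene Dbp at 4.997 FPKM, so Dbp is not a member although its values are given with the clock genes.

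Of the 14 members on a list of circadian clock genes, 8 were lower in number 2 and 0 were higher, and the median difference was -0.68 in wild type and -0.82 in transgenic islets. Of the lower ones Nr1d1, Ciart and Bhlhe40 reached 5 FPKM in the number 1 libraries only and Per2 in 3 libraries, so these had entered through the group where they are high. Of the 8 clock genes at 5 FPKM in all 4 libraries, 4 were lower, with medians of -0.28 and -0.40. The clock's repressors and outputs made up this group. Nr1d1, which encodes the repressor REV-ERB alpha (chr11:98767932-98775333, GRCm38), measured 30.5 and 49.2 FPKM in number 1 and 3.23 and 4.95 FPKM in number 2. On the FPKM + 1 scale the difference was 7.45-fold in wild type and 8.43-fold in transgenic islets. Nr1d1 overlaps Thra, and reads of overlapping genes cannot be told apart where strand is not given. Per1, a period gene and also a target of cAMP and glucocorticoid signals (chr11:69095217-69109960), measured 47.9 and 66.4 FPKM in number 1 and 10.2 and 11.1 FPKM in number 2, or 4.37-fold in wild type and 5.57-fold in transgenic islets. In both genes the higher number 2 library lay far below the lower number 1 library. Both are among the 25 largest lower shifts outside the acinar and immediate early lists. Over all members both number 2 libraries lay below both number 1 libraries for 33.2%.

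The other repressors of the loop followed the same order. Ciart, which encodes a repressor of CLOCK and BMAL1, gave 5.17 and 8.32 against 1.01 and 1.03 FPKM, and Per2 gave 15.6 and 16.7 against 4.27 and 5.14 FPKM. Bhlhe40, a basic helix-loop-helix repressor that immediate early signals also reach, gave 7.59 and 10.3 against 2.02 and 2.67 FPKM. Smaller differences, of the same direction, were found for Nr1d2 (23.1 and 22.8 against 11.8 and 11.97 FPKM), Cry2 (43.1 and 48.5 against 25.7 and 30.1 FPKM) and the bZIP repressor Nfil3 (31.2 and 38.96 against 19.7 and 20.6 FPKM). Dbp, a bZIP activator that reports clock output, measured 4.997 and 7.09 FPKM in number 1 and 1.42 and 1.73 FPKM in number 2.

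The positive arm of the loop lay on the other side of 0. Clock measured 8.23 and 7.18 FPKM in number 1 and 10.96 and 9.89 FPKM in number 2. Arntl, which encodes BMAL1, was under the level required of members, with 1.91 and 1.78 against 3.11 and 3.42 FPKM, and so was its relative Npas2, with 0.944 and 1.21 against 1.67 and 1.82 FPKM. None of these positive-arm genes reached 1.5-fold in both genotypes on the FPKM + 1 scale. At the low levels of Arntl and Npas2 that scale understates the change, and the FPKM of Arntl themselves were more than 1.5-fold apart in both genotypes. Number 2 libraries lay above number 1 libraries in each case, as they did for 36.1% of all members. Rora (4.86 and 4.53 against 4.36 and 3.86 FPKM) and the kinase gene Csnk1d (17.4 and 20.7 against 18.5 and 18.8 FPKM) lay close to even.

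CLOCK and BMAL1 bind the E-box CACGTG, and the promoters of Ciart and Per1 are shown because they hold it. Promoter windows run from 250 bases before to 50 bases after a gene's start (RefSeq, GRCm38.p6), and 5276 of the 6506 members had at least 1. The letters CACGTG, whose reverse complement is the same, were found in 2 of the 6 clock genes with a window that were lower in number 2, in 10.8% of the windows of all members and in 7.15% of all 32851 windows. Capitals mark the match in the windows at chr3:95882179-95882478, minus strand (Ciart) and chr11:69098699-69098998, plus strand (Per1, its upstream start):
Ciart: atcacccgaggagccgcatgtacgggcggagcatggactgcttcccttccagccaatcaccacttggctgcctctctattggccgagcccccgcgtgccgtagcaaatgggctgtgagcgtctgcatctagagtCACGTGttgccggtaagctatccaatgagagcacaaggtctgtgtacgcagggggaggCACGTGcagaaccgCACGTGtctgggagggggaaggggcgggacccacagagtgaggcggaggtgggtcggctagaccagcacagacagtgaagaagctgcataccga
Per1: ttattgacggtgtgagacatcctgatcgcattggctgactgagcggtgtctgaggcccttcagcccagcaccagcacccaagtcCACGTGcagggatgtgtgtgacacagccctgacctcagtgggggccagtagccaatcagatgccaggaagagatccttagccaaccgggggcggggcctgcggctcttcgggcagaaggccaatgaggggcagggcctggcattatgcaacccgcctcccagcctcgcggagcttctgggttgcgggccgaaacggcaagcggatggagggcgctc
Ciart holds 3 matches and Per1 holds 1 in these windows. A match of letters is a description and not evidence of binding. No share was taken for clock genes that were not lower.

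Cytosolic chaperones of the heat shock response lay lower in number 2 for 10 of 26 members of that list and higher for 0, with a median of -0.38 in wild type and -0.37 in transgenic islets. Hsph1, the Hsp110 chaperone (chr5:149614287-149636376), measured 211 and 227 FPKM in number 1 and 32.3 and 40.2 FPKM in number 2, or 6.36-fold in wild type and 5.55-fold in transgenic islets. Bag3, a cochaperone of Hsp70, measured 41.4 and 62.4 FPKM in number 1 and 7.24 and 8.56 FPKM in number 2. Dnajb1, the stress-inducible Hsp40, measured 291 and 441 FPKM in number 1 and 62.02 and 100.7 FPKM in number 2. In all 3 genes each number 2 library lay below both number 1 libraries, and the numbers did not overlap. These genes are among the 25 largest lower shifts outside the acinar and immediate early lists, and the same order held for 33.2% of all members.

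The inducible Hsp70 genes Hspa1a and Hspa1b gave 447 and 708 against 87.7 and 112 FPKM and 669 and 1008 against 145 and 182 FPKM, but they are near-identical copies that lie side by side, so the division of reads between them is uncertain. Constitutive chaperones differed less: Hsp90ab1 measured 622 and 748 FPKM in number 1 and 344 and 393 FPKM in number 2 and Hspa8 measured 527 and 578 FPKM in number 1 and 348 and 369 FPKM in number 2. The mitochondrial chaperonin genes Hspd1 (-0.46 and -0.50 in wild type and transgenic islets) and Hspe1 (-0.39 and -0.83) stayed short of 1.5-fold in at least 1 genotype. The transcript of the regulator, Hsf1, gave 6.66 and 7.08 against 5.04 and 5.29 FPKM. Hsp90 cochaperones did not share the direction, with 55.1 and 54.998 against 56.3 and 62.6 FPKM for Stip1 and 23.4 and 21.02 against 22.8 and 22.2 FPKM for Ahsa1.

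HSF1 binds inverted repeats of GAA, searched here as GAANNTTC, which reads the same on both strands. Of the 8 lower heat shock genes with a window, 6 held it: Bag3, Dnaja1, Hspa1a, Hspa1b, Hspb1 and Hsph1. Over windows of equal length the share was 53.8% for these genes, 5.47% for all members and 7.86% for all windows. No share was taken for members of the heat shock list that were not lower, so the share cannot be tied to the direction. A match of letters is not evidence of binding. The windows of Hspa1a (chr17:34972107-34972406, minus strand) and Hsph1 (chr5:149636266-149636565, minus strand) are shown with the match in capitals:
Hspa1a: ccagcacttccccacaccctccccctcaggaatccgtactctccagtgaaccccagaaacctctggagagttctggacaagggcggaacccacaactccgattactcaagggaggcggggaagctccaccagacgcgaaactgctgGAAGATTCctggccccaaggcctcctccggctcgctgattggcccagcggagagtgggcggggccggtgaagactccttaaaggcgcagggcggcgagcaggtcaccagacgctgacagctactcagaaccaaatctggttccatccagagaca
Hsph1: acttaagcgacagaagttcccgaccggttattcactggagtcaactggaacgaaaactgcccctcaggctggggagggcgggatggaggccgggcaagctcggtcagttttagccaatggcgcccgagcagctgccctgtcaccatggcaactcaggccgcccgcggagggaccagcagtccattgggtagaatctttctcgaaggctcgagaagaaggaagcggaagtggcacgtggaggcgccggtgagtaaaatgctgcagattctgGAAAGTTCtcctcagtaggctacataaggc

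Endoplasmic reticulum chaperones and components of the unfolded protein response held more lower members than any other list examined except the acinar and immediate early lists. Of 33 members on the list, 18 were lower in number 2 and 0 were higher, 29 had the negative sign in both genotypes, and the median was -0.71 in wild type and -0.62 in transgenic islets. The abundant luminal chaperone Hspa5 (BiP, chr2:34771970-34777547) measured 1255 and 1292 FPKM in number 1 and 333 and 438 FPKM in number 2. Calr, the lectin chaperone calreticulin, measured 666 and 771 FPKM in number 1 and 198 and 206 FPKM in number 2. Pdia4, a protein disulfide isomerase, measured 168 and 196 FPKM in number 1 and 56.1 and 66.3 FPKM in number 2. For all 3 both number 2 libraries lay well below both number 1 libraries. Of all members 33.2% had both number 2 libraries below both number 1 libraries.

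The steepest differences were in genes of folding and degradation partners. Creld2, an ER stress-inducible protein, gave 235 and 336 against 52.4 and 55.8 FPKM (4.41-fold in wild type and 5.94-fold in transgenic islets). Derl3 and Herpud1, which serve the export of misfolded proteins for degradation, gave 44.6 and 38.2 against 6.29 and 7.9997 FPKM and 502 and 535 against 104 and 122 FPKM. Syvn1, the ubiquitin ligase of that pathway, gave 31.1 and 36.2 against 10.4 and 13.7 FPKM, and the Hsp40 cochaperones Dnajb11 and Dnajb9 differed by -1.34 and -1.19 and by -1.39 and -0.93 in wild type and transgenic islets.

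Sensors and regulators differed less than these targets. Xbp1, the transcription factor spliced by IRE1, measured 137 and 144 FPKM in number 1 and 74.04 and 92.4 FPKM in number 2, and Eif2ak3, which encodes the sensor PERK, measured 14.2 and 14.4 FPKM in number 1 and 7.51 and 8.97 FPKM in number 2. The transcripts of the sensors IRE1 (Ern1, 26.7 and 25.8 against 24.7 and 24.9 FPKM) and ATF6 (Atf6, 18.1 and 18.4 against 14.6 and 15.7 FPKM) stayed within 1.5-fold. So did the lectin chaperone calnexin (Canx, 122 and 103 against 116 and 113 FPKM) and the oxidase of proinsulin folding Ero1lb (412 and 363 against 371 and 372 FPKM). The list was therefore divided, with inducible luminal chaperones low and several housekeeping members even.

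Acinar cells also hold much endoplasmic reticulum, and 26 of 28 acinar members were lower in number 2, none was higher, and their median was -2.13 in wild type and -1.94 in transgenic islets. The part of acinar RNA in the chaperone result was not tested. Vesicle coat genes of the route from the endoplasmic reticulum to the Golgi (COPII and COPI) had 5 lower and 0 higher of 34 members, with a median of -0.33 in wild type and -0.22 in transgenic islets. The lower count was 2 with a pseudocount of 5 and 8 with voom or with a length curve removed. Arf4, a small GTPase of this route, gave 82.8 and 72.3 against 37.2 and 36.9 FPKM, and the cargo receptor Surf4 gave 162 and 168 against 96.7 and 105 FPKM. Sar1b, the GTPase that starts COPII coats, lay in the other direction (69.1 and 63.9 against 96.8 and 96.02 FPKM). Subunits of the ER translocon and glycosylation machinery had 1 lower and 0 higher of 32.

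The ER stress response element, CCAAT and CCACG with 9 bases of any kind between them, is bound by ATF6 with NF-Y. On either strand it was found in windows of 6 of the 16 lower genes of this list that had one: Calr, Creld2, Derl3, Hsp90b1, Hspa5 and Syvn1. That is 37.5% of their windows, against 0.193% for all members and 0.119% for all windows. The short part CCAAT alone was present in 87.5%, 37.1% and 37.4% of these windows. The element was searched after earlier results of these data were known. No share was taken for members of this list that were not lower, so these shares cannot be tied to the direction. A match here is not evidence of binding either. Windows of Hspa5 (chr2:34771840-34772139, plus strand), Creld2 (chr15:88819396-88819695, plus strand) and Calr (chr8:84846882-84847181, minus strand) follow with the element in capitals:
Hspa5: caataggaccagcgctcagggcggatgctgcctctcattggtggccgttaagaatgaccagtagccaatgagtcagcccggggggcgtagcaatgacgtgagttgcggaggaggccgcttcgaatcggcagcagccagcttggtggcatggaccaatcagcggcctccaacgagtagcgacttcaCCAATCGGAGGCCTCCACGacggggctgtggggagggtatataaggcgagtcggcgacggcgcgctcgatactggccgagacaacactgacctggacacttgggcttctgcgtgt
Creld2: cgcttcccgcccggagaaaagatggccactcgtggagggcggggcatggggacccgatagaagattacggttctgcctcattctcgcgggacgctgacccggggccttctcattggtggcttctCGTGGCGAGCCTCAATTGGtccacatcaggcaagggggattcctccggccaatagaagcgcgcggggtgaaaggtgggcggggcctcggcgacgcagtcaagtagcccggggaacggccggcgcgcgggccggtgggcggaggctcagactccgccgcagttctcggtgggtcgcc
Calr: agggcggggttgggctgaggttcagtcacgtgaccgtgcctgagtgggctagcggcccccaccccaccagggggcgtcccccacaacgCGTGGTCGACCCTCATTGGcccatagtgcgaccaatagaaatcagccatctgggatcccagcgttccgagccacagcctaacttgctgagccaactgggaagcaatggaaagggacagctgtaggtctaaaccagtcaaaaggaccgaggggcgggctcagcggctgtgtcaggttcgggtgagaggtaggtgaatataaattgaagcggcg

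**Figure D2:**
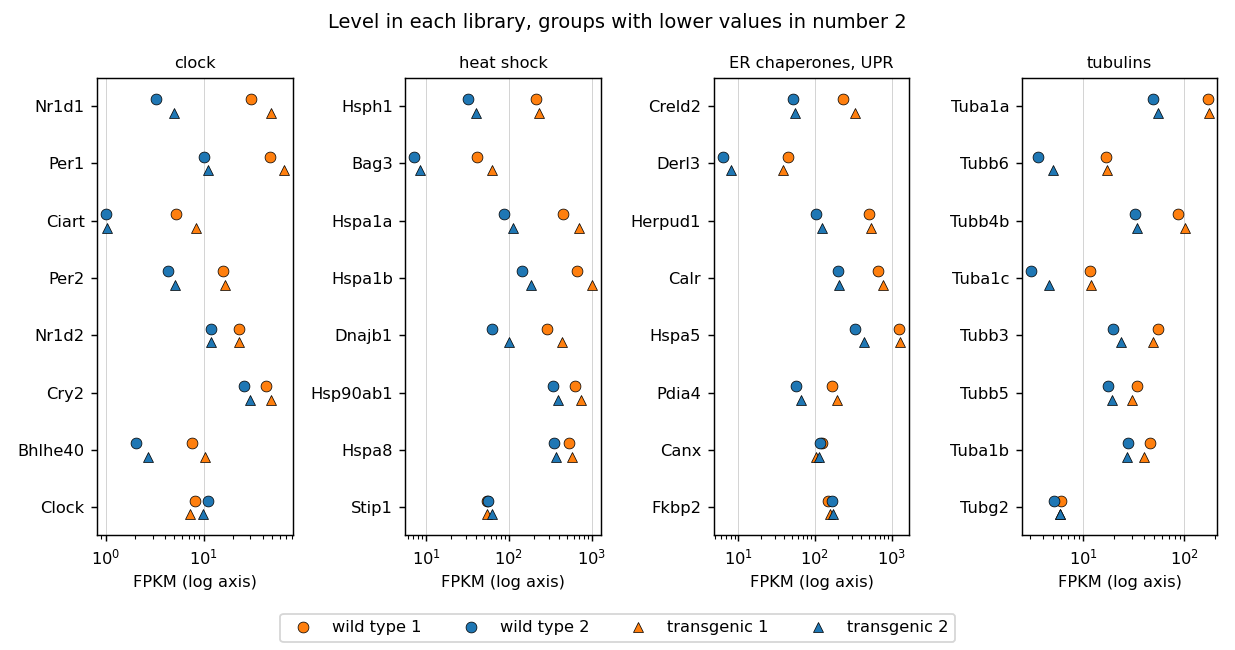
FPKM on a log axis for 8 genes of each of 4 groups, with circles for wild type, triangles for transgenic islets, orange for number 1 and blue for number 2, 1 point per library. Blue points lie left of orange points for most clock repressors, chaperones and tubulins, and level with or right of them for Clock, Stip1 and Fkbp2.

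Tubulins, the subunits of microtubules, lay lower as a family. All 12 member genes had the negative sign in both genotypes, 8 were lower at 1.5-fold and 0 were higher, with a median of -0.99 in wild type and -0.74 in transgenic islets. Of the 9 at 5 FPKM in all 4 libraries, 6 were lower. The alpha tubulin Tuba1a (chr15:98949837-98953703) measured 169 and 173 FPKM in number 1 and 49.1 and 55.04 FPKM in number 2. Tubb4b, a beta tubulin, measured 86.7 and 100.6 FPKM in number 1 and 32.5 and 33.6 FPKM in number 2, and Tubb3, the class found in neurons and endocrine cells, measured 54.3 and 48.4 FPKM in number 1 and 19.5 and 23.6 FPKM in number 2. Alpha and beta genes were both among the lower ones, and the 2 gamma tubulins of centrosomes, Tubg1 (7.95 and 10.5 against 7.69 and 7.69 FPKM) and Tubg2 (6.07 and 5.93 against 5.15 and 5.92 FPKM), were nearer to even. Genes of this family are similar in sequence, so reads can be divided between copies in ways the sources do not give. Tppp3, a tubulin polymerization promoting protein outside the list, gave 25.8 and 28.7 against 5.13 and 5.59 FPKM (4.37-fold in wild type and 4.50-fold in transgenic islets).

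Actin genes and their regulator lay lower without a shift of the wider cytoskeleton list. Srf, the transcription factor that drives actin and immediate early genes, measured 49.5 and 56.4 FPKM in number 1 and 12.6 and 14.8 FPKM in number 2. Its targets Actb and Actg1, the cytoplasmic actins, gave 265 and 315 against 73.3 and 74.5 FPKM and 258 and 318 against 101.01 and 104 FPKM, while 4 of 25 list members were lower, 0 were higher and the list medians were 0.00 and -0.17. Actin-binding genes such as Arpc5 (54.2 and 59.3 against 78.3 and 78.9 FPKM) and Tmsb4x (134 and 115 against 162 and 148 FPKM) had the positive sign in both genotypes and stayed under 1.5-fold in each. Reads of Actb and Actg1 can be shared with similar copies, and the counting of such reads is not given. The simple epithelial keratins Krt8 and Krt18, which pair in 1 filament, gave 192 and 235 against 54.1 and 65.1 FPKM and 163 and 169.8 against 54.6 and 75.9 FPKM. Cyr61, a secreted target of YAP and of SRF, gave 26.9 and 36.2 against 8.23 and 11.1 FPKM, and the list of YAP and injury genes had 4 lower and 0 higher of 8 members. Krt7 (37.9 and 38.1 against 33.5 and 37.5 FPKM) and Epcam (55.3 and 59.4 against 67.7 and 65.4 FPKM), which mark ductal and other epithelial cells, lay within 1.5-fold, and Krt19, a defining duct marker, stayed at or below 0.616 FPKM.

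Feedback genes of the signalling pathways that immediate early genes answer to were low as well. Of 11 members on the list of MAP kinase feedback genes, 7 were lower and 0 were higher (median -0.82 in wild type and -0.79 in transgenic islets). Of the 8 at 5 FPKM in all 4 libraries, 4 were lower, with medians of -0.39 and -0.50, and Dusp6, Dusp8 and Hbegf are not among these. Dusp6, a phosphatase specific for ERK, measured 11.7 and 13.6 FPKM in number 1 and 4.95 and 6.09 FPKM in number 2, and Dusp8, a phosphatase of JNK and p38, gave 8.90 and 10.3 against 2.68 and 3.0002 FPKM. Dusp1, with 207 and 315 against 38.1 and 55.3 FPKM, is on the immediate early list too. Hbegf, a ligand of the EGF receptor, gave 8.99 and 10.6 against 4.60 and 5.72 FPKM.

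For NF-kappa-B, 5 of 15 members were lower, 0 were higher, 13 had the negative sign in both genotypes, and the median was -0.63 in wild type and -0.57 in transgenic islets. Of the 9 at 5 FPKM in all 4 libraries, 3 were lower. Tnfaip3, which encodes the inhibitor A20, gave 8.09 and 13.2 against 1.95 and 2.62 FPKM and Nfkbiz, an inhibitor-like coactivator, gave 39.8 and 39.4 against 20.8 and 23.4 FPKM. Subunit genes differed in size and sign, with 9.76 and 10.2 against 3.99 and 5.98 FPKM for Nfkb2, 14.5 and 18.9 against 9.02 and 10.5 FPKM for Rela and 5.79 and 6.22 against 7.17 and 7.07 FPKM for Nfkb1. Of 31 genes on a list of chemokines, cytokines and acute phase proteins only Cxcl2, a neutrophil chemokine, was a member, and it measured 6.06 and 7.30 FPKM in number 1 and 0.877 and 1.31 FPKM in number 2. Cxcl2 thus reached 5 FPKM in the number 1 libraries only. Macrophage markers had 0 lower and 0 higher of 11 members, and interferon response genes 0 and 0 of 4.

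The integrated stress response was divided. Ppp1r15a (GADD34, which reverses eIF2 alpha phosphorylation) measured 87.03 and 119 FPKM in number 1 and 21.1 and 30.7 FPKM in number 2, and Ddit3 (CHOP) measured 67.04 and 62.8 FPKM in number 1 and 19.97 and 26.3 FPKM in number 2. Together with Cebpb these were the 3 lower of 22 members on the ATF4 list, with 0 higher. Atf4 itself gave 188 and 185 against 126 and 143 FPKM, and amino acid genes such as Psat1 (8.96 and 6.06 against 4.95 and 6.23 FPKM) and Phgdh (33.7 and 27.8 against 26.2 and 37.5 FPKM) had opposite signs in the genotypes. Trib3, another target of this arm, had 6.78 and 5.51 against 4.07 and 5.49 FPKM and a difference of -0.62 and -0.01.

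Among genes of cAMP signalling 4 of 12 members were lower, Per1, Sik1, Irs2 and Nr4a1, and 1 was higher. Per1 is counted with the clock genes above, and Sik1 is on the immediate early list too. Sik1 reached 5 FPKM in the number 1 libraries only. Irs2, the insulin receptor substrate that CREB raises in beta cells, measured 50.1 and 53.7 FPKM in number 1 and 12.8 and 18.7 FPKM in number 2, and Sik1, a kinase that restrains CREB coactivators, gave 6.55 and 9.66 against 1.38 and 1.77 FPKM. The higher one was Rgs2, a brake on Gq signalling, with 92.6 and 63.04 FPKM in number 1 and 219 and 193 FPKM in number 2 (2.35-fold in wild type and 3.03-fold in transgenic islets). On the p53 list 3 of 15 were lower, Btg2 (174 and 218 against 60.5 and 72.04 FPKM), Trp53inp1 and Gadd45a, while the p53 target Cdkn1a stayed near even (15.8 and 17.2 against 17.8 and 20.6 FPKM). On the list of NRF2 antioxidant genes Hmox1 (heme oxygenase, 12.4 and 15.2 against 5.42 and 5.63 FPKM) and Osgin1 (9.38 and 10.2 against 2.11 and 3.63 FPKM) were lower, Nqo1 (3.78 and 3.12 against 6.68 and 6.96 FPKM) was higher, and the other 25 members were neither. Osgin1 reached 5 FPKM in the number 1 libraries only and Nqo1 in the number 2 libraries only.

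The Reg genes encode secreted lectins made by acinar cells and by injured or regenerating pancreas, and all 4 members were lower. Reg2, Reg3b and Reg3d reached 5 FPKM in the number 1 libraries only, and Reg1 was the 1 member at that level in all 4 libraries. Reg3b, the member with the largest shift of those outside the acinar and immediate early lists (chr6:78370657-78373466), measured 17.9 and 13.8 FPKM in number 1 and 0.608 and 0.750 FPKM in number 2. On the FPKM + 1 scale the difference was 11.8-fold in wild type and 8.43-fold in transgenic islets, less than the ratio of these FPKM. Reg1 gave 148 and 157 against 33.2 and 45.6 FPKM, and Reg2, which varied more between genotypes, gave 14.4 and 7.82 against 1.26 and 2.85 FPKM. Dmbt1, a secreted scavenger protein, gave 15.6 and 19.2 against 3.001 and 4.50 FPKM, and it too reached 5 FPKM in the number 1 libraries only. Acinar markers were also lower in number 2 in both genotypes, as given above, and their part was not tested.

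Several of the largest differences belonged to none of these groups. Mlf1, a nuclear and cytoplasmic adaptor, measured 7.14 and 7.90 FPKM in number 1 and 0.314 and 0.277 FPKM in number 2. Rbm15b, an adaptor of the RNA methylation machinery, measured 49.2 and 49.9 FPKM in number 1 and 6.89 and 9.19 FPKM in number 2, but it lies within the span of Manf, an ER stress gene that was lower too (159.8 and 155 against 74.1 and 85.001 FPKM), and reads of overlapping genes cannot be told apart where strand is not given. Tiparp, a target of the aryl hydrocarbon receptor, gave 23.6 and 21.8 against 4.93 and 4.98 FPKM. Amigo3 (14.4 and 19.7 against 2.87 and 3.33 FPKM) and Zscan18 (10.3 and 10.4 against 2.17 and 2.06 FPKM) were also among the 25 largest lower shifts outside the acinar and immediate early lists. Mlf1, Tiparp, Amigo3 and Zscan18 reached 5 FPKM in the number 1 libraries only, so they had entered through the group where they are high. Of the 241 members that passed in this way, 72 were lower. Amigo3 overlaps Rnf123, so the limit of shared reads holds for it too. Among genes named elsewhere it holds for Dbp (overlaps Sphk2), Rps28 (Kank3), Cox6a2 (Itgad), Ndufs6 (Mrpl36) and Iapp (Slco1a5). Rbm15b overlaps Dcaf1 as well as Manf. Slc2a2, Herpud1, Txnip and Pdx1 overlap antisense genes, and Tiparp and Zscan18 overlap pseudogenes. Bag3 overlaps 2610306O10Rik and Srf overlaps Mir6976. Overlaps were looked up only for the 25 largest shifts in each direction and the genes taken always.

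Transcription factors, as the deposited table annotates them, held 39 lower and 5 higher of 334 members. bZIP factors made up 11 of the lower ones (of 29 members), but 8 of these are on the immediate early list, among them Fos, Jun, Atf3 and Maff. Of the other 21 bZIP members 3 were lower, Xbp1, Ddit3 and Nfil3, and over all families 24 of 319 were lower without that list. The Rel homology family had 2 lower of 5, Rela and Nfkb2, and the homeobox family had 0 lower and 1 higher, Irx1, of 20. Forkhead factors had 0 and 0 of 11.

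Other functions were close to even. Proteasome subunits had 0 lower and 0 higher of 43 members, the vacuolar proton pump 0 and 0 of 17, and cell adhesion and junction genes 0 and 0 of 17. Sterol synthesis genes had 0 and 0 of 13, and lysosome genes 1 lower and 0 higher of 27. On the glycolysis list of 13 members 1 was lower (Aldoa, an aldolase, 157 and 156 against 98.6 and 100.04 FPKM) and 1 was higher (Ldhb, a lactate dehydrogenase subunit, 8.75 and 7.96 against 14.4 and 14.04 FPKM). Genes of the nucleolus and of ribosome assembly had 1 lower and 0 higher of 22, with 15 negative in both genotypes.

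**Figure D3:**
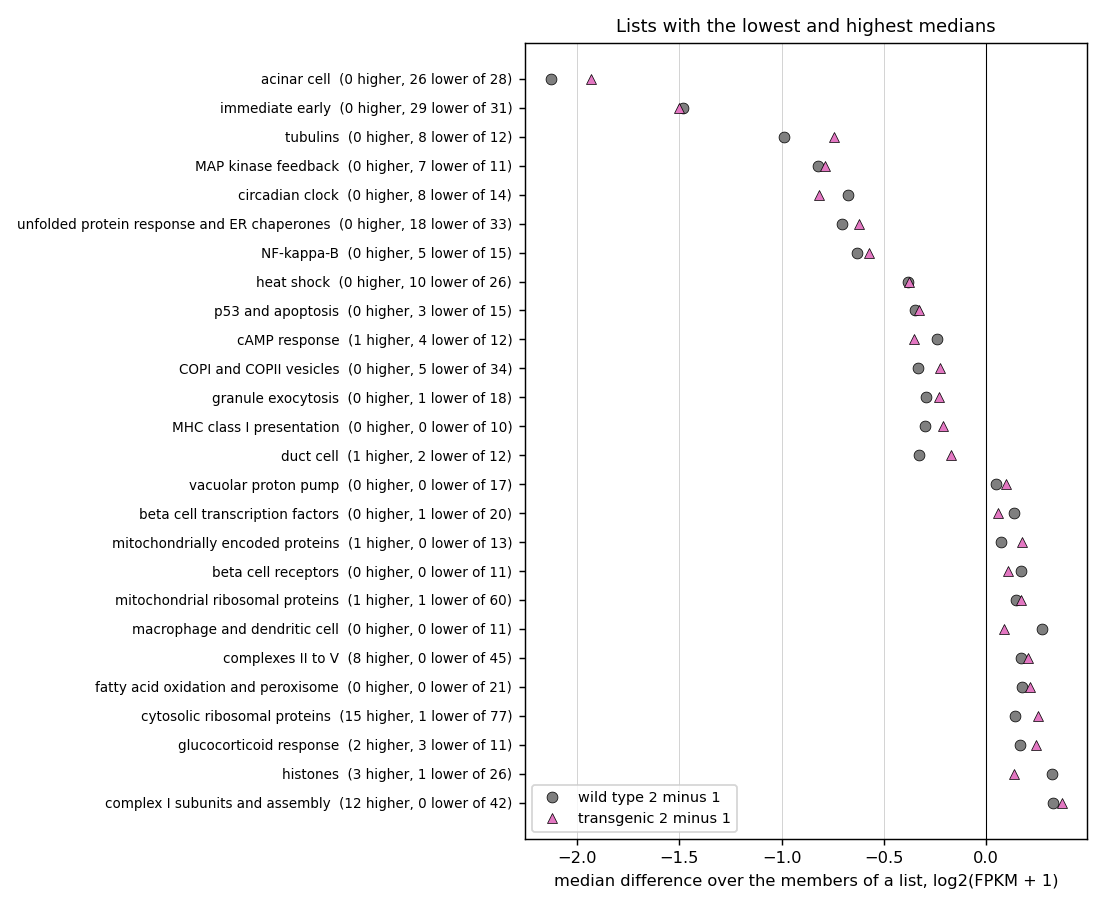
Median difference between number 2 and number 1 over the members of a list, in wild type (circles) and transgenic islets (triangles), on the log2(FPKM + 1) scale, for the 14 lowest and 12 highest of the lists with at least 10 members, with the counts of members at least 1.5-fold apart in both genotypes in brackets. Medians run from -2.13 for acinar genes to 0.37 for complex I, beside 0.02 and 0.01 over all members.

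On the higher side stood hormone genes of the minor endocrine cells. Ppy, the hormone of PP cells (chr11:102099930-102101319), measured 3737 and 3999.9 FPKM in number 1 and 9089 and 8764 FPKM in number 2, or 2.43-fold in wild type and 2.19-fold in transgenic islets. Sst, the hormone of delta cells, measured 2653 and 2813 FPKM in number 1 and 4290.4 and 4713 FPKM in number 2, and Rbp4, another delta cell gene, gave 68.99 and 68.8 against 103 and 101.3 FPKM. Gcg, the alpha cell hormone, did not share this, with 12617 and 11842 FPKM in number 1 and 12206 and 11520.5 FPKM in number 2, and neither did Pyy (1752 and 1653 against 1722 and 1697 FPKM). Pdyn, a neuropeptide gene on the same list, lay lower (40.3 and 35.7 against 20.5 and 21.4 FPKM), which made 2 higher and 1 lower of 7.

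Both number 2 libraries lay above both number 1 libraries for the alpha cell transcription factor genes Irx1 and Irx2, although Gcg was even. Over all members this order held for 36.1%. Irx1 measured 1.81 and 2.29 FPKM in number 1 and 6.39 and 6.63 FPKM in number 2 (2.63-fold in wild type and 2.32-fold in transgenic islets on the FPKM + 1 scale). Irx2, which was under the level required of members, gave 2.81 and 2.80 against 6.11 and 4.67 FPKM. Of the 9 alpha cell members 2 were higher, Irx1 and Dpp4 (a peptidase, 8.49 and 7.72 against 14.9 and 12.96 FPKM), and 0 were lower. Of the 7 at 5 FPKM in all 4 libraries, 1 was higher. Sox4, a transcription factor of endocrine development, measured 2.88 and 3.89 FPKM in number 1 and 7.92 and 9.002 FPKM in number 2. Irx1 and Sox4 reached 5 FPKM in the number 2 libraries only, so they had entered through the group where they are high.

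Beta cell genes differed one by one. Slc2a2, which encodes the glucose transporter GLUT2 (chr3:28697903-28731359), measured 57.3 and 61.3 FPKM in number 1 and 146 and 122 FPKM in number 2, or 2.52-fold in wild type and 1.98-fold in transgenic islets. Trpm5, a cation channel of beta cells, gave 12.6 and 13.6 against 25.3 and 21.6 FPKM, and the phosphatase gene G6pc2 gave 1936 and 1592 against 2623 and 2737 FPKM. The KATP channel subunits lay in opposite directions, with 32.9 and 38.8 against 42.01 and 49.6 FPKM for Kcnj11 and 171 and 189.7 against 114 and 129.5 FPKM for Abcc8, neither of them 1.5-fold apart. Of 12 members on this list 2 were higher and 0 were lower.

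Of the beta cell hormones, Ins2 lay higher in number 2 in both genotypes, and Ins1 and Iapp stayed near even. Ins2 measured 152363 and 89340.3 FPKM in number 1 and 211742 and 200260 FPKM in number 2, with a difference of 0.47 in wild type and 1.16 in transgenic islets, so it stayed short of 1.5-fold in wild type although its numbers did not overlap. Over all members, both number 2 libraries lay above both number 1 libraries for 36.1%. Ins1 measured 42407 and 38067 FPKM in number 1 and 44326 and 42284 FPKM in number 2 and Iapp, the amylin gene, gave 26071 and 21406 against 26858 and 24883 FPKM. The number 1 and number 2 libraries of Ins1 and Iapp overlapped. Insulin, amylin and mitochondrial genes took 53.2% and 42.99% of all FPKM in number 1 and 58.8% and 57.1% in number 2.

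Of 20 beta cell transcription factors 0 were higher and 1 was lower, Mlxipl, the glucose-sensing factor ChREBP (62.9 and 77.7 against 37.8 and 42.03 FPKM). Mafa (102 and 155 against 141 and 168 FPKM) and Pdx1 (55.4 and 59.1 against 63.1 and 62.6 FPKM) lay within 1.5-fold, and so did the members for prohormone processing and granins, with 0 and 0 of 15. Txnip, a target of ChREBP, gave 189 and 274 against 247 and 256 FPKM and opposite signs in the genotypes, and Vegfa gave 109 and 119.6 against 112 and 119 FPKM. Granule exocytosis genes had 13 of 18 members negative in both genotypes at a median of -0.30 in wild type and -0.23 in transgenic islets, but 1 reached 1.5-fold, Napa (69.9 and 75.7 against 38.9 and 42.02 FPKM), which encodes the SNARE recycling factor alpha-SNAP. Within this list Sytl4, a granule docking protein, lay higher (58.6 and 58.8 against 96.9 and 86.5 FPKM).

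**Figure D4:**
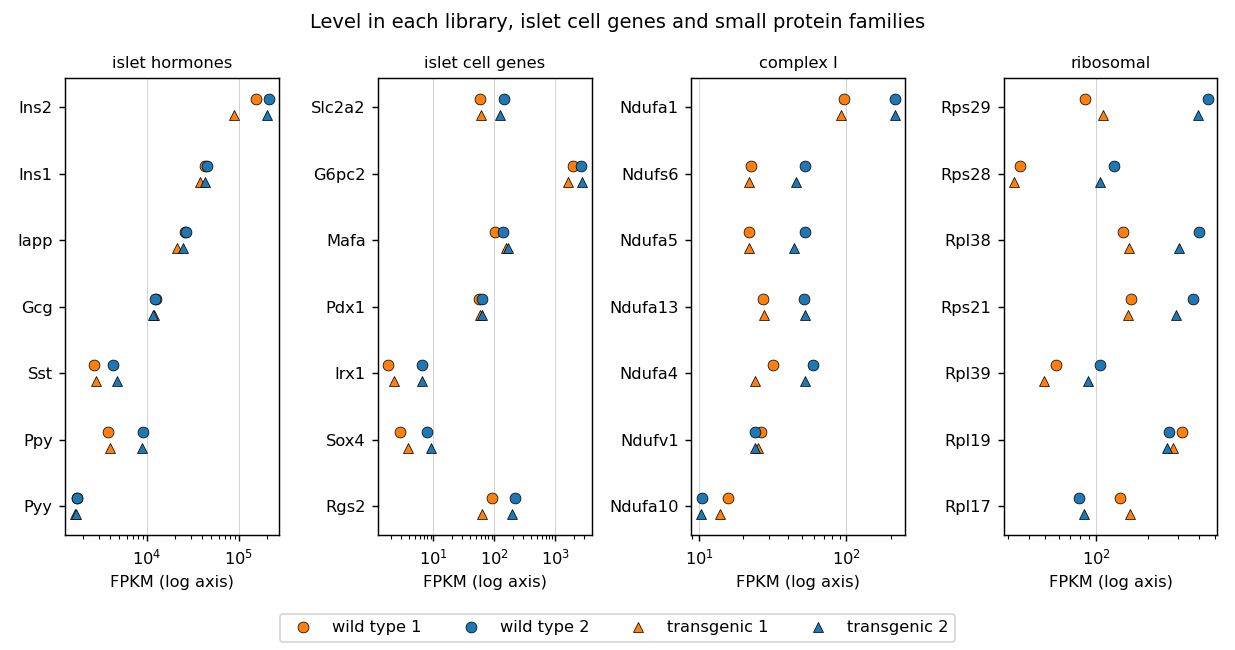
FPKM on a log axis for islet hormones, islet cell genes, complex I subunits and ribosomal proteins, with circles for wild type, triangles for transgenic islets, orange for number 1 and blue for number 2, 1 point per library. Blue lies right of orange for Sst, Ppy, Slc2a2, Irx1, Sox4, Rgs2, Ndufa1 and Rps29, on both sides for Gcg, and left of orange for Ndufa10, Rpl19 and Rpl17.

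The lists of respiratory chain subunits and cytosolic ribosomal proteins held more higher than lower members. Complex I, the NADH dehydrogenase of mitochondria, had 12 higher and 0 lower of 42 members and a median of 0.33 in wild type and 0.37 in transgenic islets. Ndufa1 (chrX:37187588-37191163) measured 96.99 and 91.9 FPKM in number 1 and 213 and 213 FPKM in number 2, and Ndufs6 gave 22.5 and 21.9 against 52.01 and 45.6 FPKM. Ndufa10 (15.6 and 13.97 against 10.4 and 10.3 FPKM) and Ndufv1 (26.4 and 25.3 against 23.9 and 23.9 FPKM) lay on the other side of even. Complexes II to V had 8 higher and 0 lower of 45, led by the ATP synthase subunit gene Atp5k (14.7 and 17.3 against 72.01 and 56.3 FPKM) and the cytochrome oxidase subunit gene Cox6a2 (63.4 and 70.2 against 142 and 181 FPKM). The mitochondrially encoded genes had 1 higher of 13, mt-Atp8, with 1.23 and 1.52 FPKM in number 1 and 13.05 and 14.5 FPKM in number 2, the largest higher shift of all members. This gene reached 5 FPKM in the number 2 libraries only, so it had entered through the group where it is high. Of the 12 at 5 FPKM in all 4 libraries, 0 were higher. mt-Atp8 overlaps mt-Atp6 on the mitochondrial genome, so its reads are uncertain.

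Cytosolic ribosomal proteins had 15 higher and 1 lower of 77 members, with a median of 0.14 in wild type and 0.26 in transgenic islets. Rps29 measured 85.9 and 109 FPKM in number 1 and 452 and 395 FPKM in number 2, or 5.21-fold in wild type and 3.60-fold in transgenic islets. Rps28 gave 35.4 and 32.7 against 127 and 105 FPKM and Rpl38 gave 142 and 156 against 401 and 307 FPKM, while Rpl17, the lower one, gave 137 and 158 against 78.6 and 84.6 FPKM. Copies of ribosomal protein genes are many in the genome, and how the counting treated reads shared with them is not given. Mitochondrial ribosomal proteins had 1 higher and 1 lower of 60, and core spliceosome proteins 5 higher and 1 lower of 40, the higher ones being small Sm and Lsm proteins such as Snrpd2 (9.86 and 9.79 against 20.4 and 19.4 FPKM) and Snrpg (8.22 and 7.09 against 15.99 and 14.5 FPKM), against Snrpa (14.6 and 16.03 against 7.66 and 9.62 FPKM).

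Gene length went with the difference. Members of up to 700 bases had median differences of 0.44 in wild type and 0.40 in transgenic islets, and 26 of 82 (31.7%) were higher. From 700 to 1000 bases the medians were 0.24 and 0.29 with 12.1% higher, and over 6000 bases they were 0.00 and -0.01 with 1.63% higher. The shares of lower members were 7.32%, 9.40% and 3.81% in these 3 ranges. Higher members had a median gene length of 1816 bases, lower members 3246 and all members 3918.

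The length trend was also present outside the ribosomal and respiratory families. Of the 178 such members of up to 1000 bases 31 were higher and 18 were lower, with medians of 0.21 and 0.28. In complex I, 4 of 11 members of up to 1000 bases and 8 of 31 longer ones were higher, and for cytosolic ribosomal proteins 3 of 11 and 12 of 66. After a curve on length was removed from each library, complex I had 6 higher members and cytosolic ribosomal proteins 11. With curves on both length and GC removed they had 11 and 12, close to the 12 and 15 without a curve. With voom on the reads the counts were 6 and 9, beside 4 for complexes II to V. Beyond these counts, the part of gene length was not tested. Small proteins of other kinds were among the 25 largest higher shifts, including Mrln (myoregulin, 11.1 and 11.9 against 48.05 and 38.5 FPKM), Smim22 (15.2 and 17.3 against 44.9 and 48.9 FPKM), Rpa3 (a subunit of replication protein A, 3.13 and 2.63 against 9.71 and 8.17 FPKM) and the respiratory chain assembly factors Pet100 (1.87 and 2.10 against 6.32 and 6.12 FPKM) and Fmc1 (9.61 and 8.73 against 20.3 and 19.1 FPKM). Rpa3 and Pet100 reached 5 FPKM in the number 2 libraries only.

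**Figure D5:**
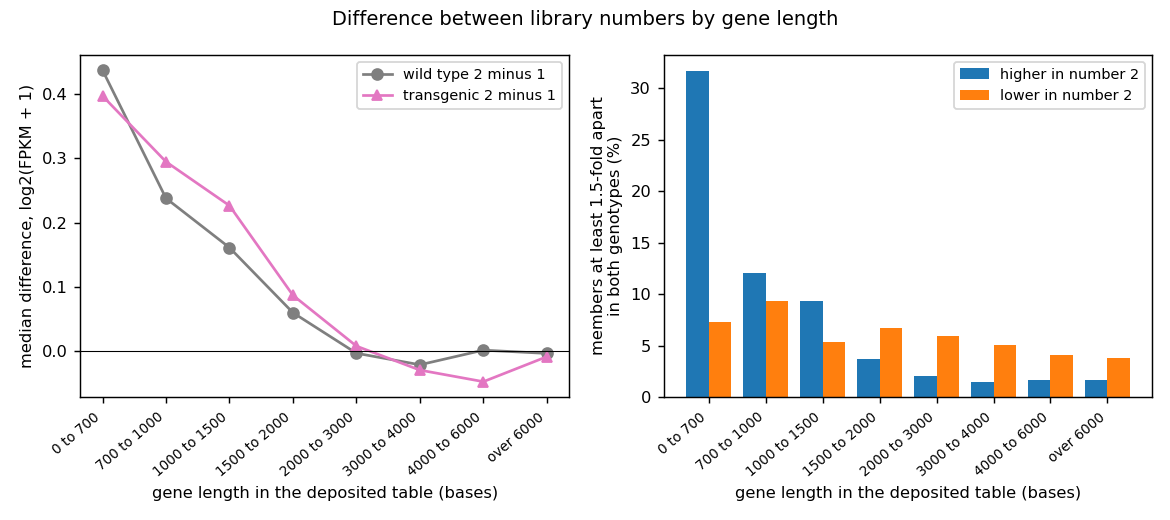
Members grouped by the gene length of the deposited table. Left, the median difference between number 2 and number 1 in each genotype on the log2(FPKM + 1) scale, which falls from 0.44 and 0.40 in the shortest group to near 0 above 2000 bases; right, the percent of members at least 1.5-fold higher or lower in both genotypes, with 31.7% higher in the shortest group.

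Base composition went with the difference to a smaller extent. Members of up to 42% GC had medians of 0.07 in wild type and 0.16 in transgenic islets, and members over 58% had -0.04 and -0.16. Lower members were 1.80% of the first and 6.88% of the second range. After a curve on GC was removed the lower members numbered 16 for the endoplasmic reticulum list, 10 for heat shock, 7 for the clock and 8 for tubulins, while NF-kappa-B went from 5 to 3.

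Single genes outside these groups rounded out the higher side. Mt1, a metallothionein, measured 179 and 189 FPKM in number 1 and 299 and 327 FPKM in number 2, while its neighbour Mt2, under the level required of members, measured 4.35 and 3.03 FPKM in number 1 and 1.38 and 1.05 FPKM in number 2. Among glucocorticoid targets Fkbp5 gave 10.5 and 11.2 against 13.8 and 13.6 FPKM and Pdk4, which restrains pyruvate oxidation, gave 4.08 and 3.52 against 7.79 and 7.78 FPKM, whereas Sgk1 gave 13.1 and 14.7 against 5.22 and 5.27 FPKM. The list thus held 2 higher and 3 lower of 11 members. Pdk4 reached 5 FPKM in the number 2 libraries only. Of the 10 at that level in all 4 libraries, 1 was higher and 3 were lower. Hbb-bs, a hemoglobin gene that marks red blood cells, gave 3.11 and 2.47 against 7.13 and 5.95 FPKM, and Hba-a1 gave 6.71 and 5.78 against 12.8 and 10.7 FPKM. Nrep (5.93 and 5.59 against 15.3 and 13.4 FPKM), Krt10 (1.94 and 1.85 against 5.36 and 5.74 FPKM), Dynlt1b (6.90 and 7.60 against 22.5 and 18.3 FPKM), Hist1h4k (14.9 and 15.2 against 38.7 and 30.97 FPKM), Tmem256 and Tmem258 were also among the 25 largest higher shifts, and of these Dynlt1b and Hist1h4k have near-identical copies. Hbb-bs and Krt10 reached 5 FPKM in the number 2 libraries only.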

How the data were processed

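RNA of the 4 islet samples was sequenced from libraries of an Illumina TruSeq RNA kit started from 1 microgram of total RNA, per the labels' protocols. HTSeq 0.6.0 and GRCm38 are named in the submitters' processing notes, while the sources used here do not give the aligner or the strand setting. FPKM values, with the length of every gene, are as the authors deposited them. FPKM times length gave whole multiples of a single step per library, within 0.001, for 100% of values above 0, and these were taken as reads. At this depth 3 reads, the limit a count of 0 allows, are worth 0.116 to 0.143 FPKM in a gene of 1 kilobase, which covers counting error only.

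Libraries were grouped by the genotype and number in their titles. limma 3.58.1 (R 4.3.3, lmFit and eBayes with trend, Benjamini-Hochberg adjustment) was fitted to log2(FPKM + 1) of genes with at least 1 FPKM in 2 libraries, with genotype and number as terms, and was tested on simulated data. Differences, list medians and counts were computed with pandas 2.3.3. GC content came from GENCODE M21 transcripts and promoter windows from RefSeq (GRCm38.p6), matched through Entrez IDs or symbols. Alternatives were pseudocounts of 0.1 and 5, no filter, members in all 4 libraries, median centring, scaling without insulin, amylin and mitochondrial genes, GC and length curves (lowess, span 0.3), voom, other terms and leaving out each library.

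Named genes are the 25 largest shifts in each direction outside the acinar and immediate early lists, where the shift is the smaller of the within-genotype differences of equal sign, up to 4 per list and direction, and islet hormones, beta cell, clock and stress genes taken always. Predicted models were passed over, 3 higher and 1 lower, and some genes under these rules are not reported here. Genes given as contrasts within a list were chosen after their values were seen. The members, the 80 lists and these rules were chosen with earlier results of these data known. The pairing of libraries by number rests on no label.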

Additional observations from a re-analysis of the deposited data

Results flagged for a closer look

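Between genotypes the difference of number 2 from number 1 had opposite signs for 2 named genes, and none of these differences was tested, since each genotype has 1 library of each number. Txnip was 0.39 higher in wild type 2 and 0.10 lower in transgenic 2 on the log2 scale, so the transgenic difference minus the wild-type difference was -0.48. For Vegfa it was -0.038, from values close to even in both genotypes. The median of the actin and SRF list gave -0.17, from 0.00 in wild type and -0.17 in transgenic islets.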

How the results depend on the processing

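The counts of members at least 1.5-fold apart in both genotypes, 190 higher and 322 lower, became 100 and 196 with a pseudocount of 5, and the lower count became 534 with voom on the recovered reads. The cause was not tested. Members called by limma, 1013 higher and 1074 lower, became 148 and 263 with no filter on low values, and the lower ones became 2003 with voom. Leaving out each library in turn, with fewer samples and number as the only term, gave 225 to 432 higher and 239 to 607 lower. Under the other alternatives run, these counts stayed within 1.5 times. Among lists described, requiring 5 FPKM in all 4 libraries took the lower clock genes from 8 to 4, MAP kinase feedback from 7 to 4, NF-kappa-B from 5 to 3 and Reg genes from 4 to 1. NF-kappa-B also gave 2 with a pseudocount of 5, 3 with GC or both curves removed and 8 with voom, and voom took the actin list from 4 to 7. The median of the actin and SRF list changed sign without wild type 2 and without transgenic 1, over a range of -0.222 to 0.0848. Among named genes, limma calls of Ins2, Fkbp5, G6pc2, Sst, Ppy, Mt1 and Dnajb1 were lost under at least 1 alternative, and Mafa (length and GC curves) and Trib3 (voom) were called under 1 each. With the number as a replicate block, limma called 0 of 12716 genes between genotypes, with 1360 at an unadjusted p under 0.05, and without the block it called 0, with 83. Whether the numbers pair libraries beyond the labels rests on these data alone. The 2 libraries a group limit the precision of every value, and at 21670854 to 27080907 reads a library, counting error adds to it for members near the 5 FPKM minimum.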

Other observations

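Genes that do not encode proteins, outside the members, also differed between the numbers. Among those fitted, long intergenic RNAs had 30 of 250 at least 1.5-fold higher in number 2 in both genotypes and 6 lower, with medians of 0.24 in wild type and 0.27 in transgenic islets. Transcripts from bidirectional promoters had 10 higher and 0 lower of 48. Snhg20, a snoRNA host gene, measured 3.34 and 3.83 FPKM in number 1 and 14.5 and 14.4 FPKM in number 2, and Snhg8, another host gene, measured 10.7 and 12.7 against 37.6 and 32.5 FPKM.

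Small RNA loci lay on the other side. Of 103 snoRNA loci 34 were lower and 2 were higher, with medians of -0.63 and -0.76, and of 74 snRNA loci 21 were lower and 1 was higher. Of 151 miRNA loci 42 were lower and 12 were higher. Their lengths have medians of 95, 107 and 76 bases. Other classes of short genes differed from these. Processed pseudogenes, with a median of 494 bases, had 64 higher and 33 lower of 518. Antisense genes, with a median of 854 bases, had 25 higher and 27 lower of 271. The part of length in these classes was not tested. Mir6395 measured 67.2 and 50.7 FPKM in number 1 and 4.24 and 4.18 FPKM in number 2, which rest on 146, 119, 10 and 8 reads. Many of these loci lie in other genes, whose reads cannot be told apart from theirs, and levels at such loci do not measure mature small RNAs. Among protein-coding genes fitted below the members' level, 42 of 4368 were higher and 110 were lower.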
